A study of Mus musculus with 24 samples.

Results

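The proteasome subunits described here are the protein-coding genes of the GENCODE mouse annotation whose symbol is Psma, Psmb, Psmc or Psmd followed only by a number. This rule took 39 of the 55487 genes listed for TA (tibialis anterior) muscle, and 39 of the 21974 that are protein-coding. By role they are 7 alpha-ring genes (Psma1 to Psma7), 4 structural beta genes (Psmb1 to Psmb4), 3 constitutive catalytic genes (Psmb5 to Psmb7), 3 inducible catalytic genes (Psmb8 to Psmb10), 6 ATPase genes (Psmc1 to Psmc6), 3 other genes of the base (Psmd1, Psmd2 and Psmd4), 8 lid genes (Psmd3, Psmd6 to Psmd8 and Psmd11 to Psmd14), and 3 genes of chaperones that assemble the base (Psmd5, Psmd9 and Psmd10). The remaining pair, Psma8 of testis and Psmb11 of the thymic cortex, is known for expression in a single tissue. The activators (Psme genes) and partner subunits with other symbols fall outside the rule and are given separately as genes of the pathway.

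The proteasome is the main protease of the cytosol and nucleus. Its core particle is a barrel of alpha and beta rings with the cutting sites on its inner face, and its regulatory particle binds ubiquitin-tagged proteins, removes the tag, unfolds them with a ring of ATPases and feeds them into the core. Interferon and immune cells bring in inducible catalytic subunits that replace the constitutive ones and change which peptides are cut, a form called the immunoproteasome. In skeletal muscle the pathway degrades myofibrillar proteins, and its activity is known to go up in atrophy.

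Poly(A) RNA of the left TA was sequenced from 24 C57BL/6J male mice (wild type, 5 to 7 weeks old), 6 in each of 4 groups. Sedentary control mice were shaved and anesthetized like the treated mice but received no light, and did not run. Sedentary PBMT mice received 830 nm light on the lower limbs for 20 min (25 mW/cm2, 30 J/cm2), and their muscle was taken 24 h later without a run. Fatigued control mice were prepared in the same way without light and then ran on a treadmill to exhaustion, and fatigued PBMT mice had the same light 24 h before such a run, with muscle taken directly after it. The fatigued and the sedentary mice were 2 sequencing projects, so a difference between these states cannot be told apart from a difference between projects. The questions were whether PBMT changed gene expression in resting muscle, and whether it did so in muscle that had run to exhaustion.

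Counts per mouse had a lowest, median and highest value of 43271093, 45278264 and 46904076 in sedentary controls, and 46327516, 49421796 and 52775844 with sedentary PBMT. They were 56792327, 61892168 and 68726155 in fatigued controls, and 53122528, 60228908 and 68566029 with fatigued PBMT. Totals were higher with PBMT than in controls in sedentary muscle (exact permutation test, two-sided p = 0.00433) and not detectably so in fatigued muscle (exact permutation p = 0.357). They were higher in fatigued than in sedentary mice in both comparisons between states (exact permutation p = 0.00216, the smallest that 6 mice against 6 can give). Levels are therefore given in CPM, which relate the reads of a gene to the TMM-scaled size of the library.

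Of the 39 subunit genes, 37 passed the filter on low counts and were tested. Psma8 had 0 to 14 counts per mouse and Psmb11 had 0 or 1, and both were removed. Genes were called when the edgeR p adjusted over all genes tested was under 0.05, and fold changes are on the log2 scale with 95% intervals. A gene given as higher or lower in 6 of 6 had all fatigued mice above, or below, every sedentary mouse. Between 14177 and 15108 genes were tested per comparison.

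Some libraries stood apart in the subunits. Sedentary control mouse 4 had the highest CPM of its group for Psmb5, Psmb6, Psmb10 and Psmc4, each far above the other 5 mice, and it was far above them also in other subunits, such as Psmd3 (182 CPM, others 94.65 to 103.5), Psmd4 (189 CPM, others 103 to 127.5), Psmc3 (268 CPM, others 185 to 197.5) and Psmb4 (162.5 CPM, others 108 to 123). It was not high throughout, being the lowest of its group for Psma2 (61.4 CPM, others 73.7 to 83.5), Psmb2 (37.0 CPM, others 43.6 to 49.7), Psmc6 (92.2 CPM, others 111 to 126.5), Psma6 and Psmc1, and above the group mean in 20 of the 34 constitutive subunits. Fatigued control mouse 5 was far above its group for Psmb8 and Psmb10. Fatigued PBMT mouse 1 was above its group mean in 33 of the 34 constitutive subunits, by 0.21 on average, while fatigued PBMT mice 4 and 5 were above it in only 2 each, with average deviations of -0.14 and -0.16. Results are given with all mice, and some of them also without a single mouse.

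TA muscle expressed the constitutive subunits in each of the 4 groups, and the inducible ones at a small share of their level. All 39 genes summed to 3630 ± 240 CPM in sedentary controls, 3660 ± 194 with sedentary PBMT, 3830 ± 66.8 in fatigued controls and 3790 ± 389 with fatigued PBMT (mean ± SD, n = 6 mice each). This was 0.371%, 0.366%, 0.377% and 0.374% of all counts in the same order. The 20 regulatory genes summed to 2290 ± 212, 2340 ± 160, 2510 ± 57.8 and 2480 ± 252 CPM, and the 14 constitutive core genes to 1320 ± 44.3, 1310 ± 44.1, 1300 ± 18.7 and 1300 ± 141 CPM. The 3 inducible genes together reached only 14.7 ± 4.33, 12.6 ± 1.89, 11.6 ± 2.89 and 11.2 ± 1.16 CPM. The ranges of these sums overlapped between groups, and the sums were not tested. In TMM-scaled CPM of controls, the overlap between states in the sum of all 39 genes and in that of the regulatory genes came from sedentary control mouse 4 alone (4071 and 2700 CPM). This rests on the scaling, since TMM factors ran from 0.9944 to 1.067 in sedentary and from 0.9494 to 1.05 in fatigued controls. The other 5 sedentary controls ran from 3422 to 3683 CPM for all 39 genes and from 2119 to 2342 CPM for the regulatory genes, under the 3725 to 3912 and 2429 to 2589 CPM of fatigued controls. Highest among the mice for the sum of all 39 genes was fatigued PBMT mouse 1 at 4370 CPM, and lowest was fatigued PBMT mouse 5 at 3320 CPM.

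Compared per kilobase of transcript in sedentary controls, levels differed within and between roles. In the alpha ring, Psma6 had the highest level at 89.1 CPM per kb and Psma2 the lowest at 20.3. Among structural beta genes these were Psmb4 at 61.8 and Psmb1 at 20.1 CPM per kb, and among constitutive catalytic genes Psmb5 at 74.6 and Psmb6 at 56.2, by the union of exons. The regulatory particle covered a like range per kb.

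By the same measure its ATPases ran from Psmc2 at 23.7 to Psmc5 at 91.7 CPM per kb, its other base genes from Psmd1 at 17.3 to Psmd2 at 75.9, and its lid from Psmd11 at 14.9 to Psmd7 at 67.5. The chaperones of base assembly, which leave the finished complex, lay lower, from Psmd5 at 2.16 to Psmd10 at 5.95 CPM per kb. The inducible genes ran from Psmb9 at 0.444 to Psmb10 at 5.14 CPM per kb. Transcript length was the union of exons. With the longest transcript instead the order within some roles was another: the constitutive catalytic genes ran from Psmb5 at 74.6 over Psmb6 at 132 to Psmb7 at 196 CPM per kb, the ATPases from Psmc6 at 50.1 to Psmc3 at 111, and the highest chaperone was Psmd9 at 8.29. In the alpha ring, structural beta, other base, lid and inducible genes the highest and lowest genes stayed the same.

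**Figure D1:**
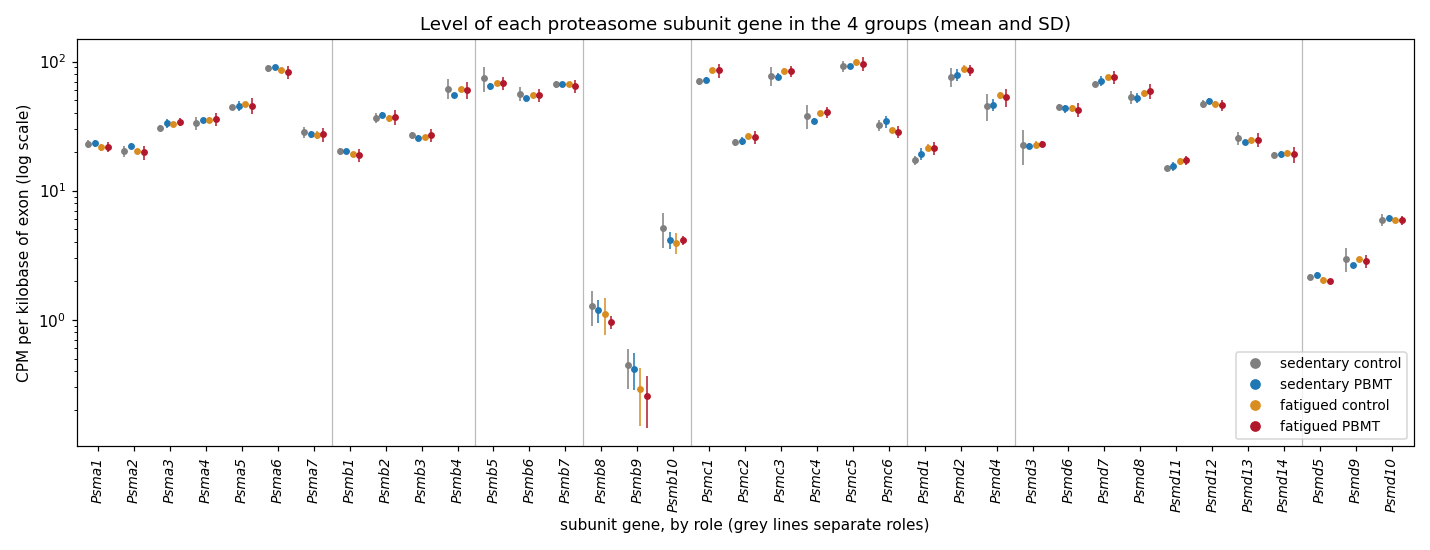
Level of each of the 37 tested subunits in CPM per kilobase of transcript (log axis), as the mean of 6 mice in each of the 4 groups, arranged by role. The inducible genes and the chaperones lie below the other roles in each group, with Psmb9 lowest at 0.444 CPM per kb in sedentary controls.

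Each inducible catalytic subunit takes the place of a constitutive partner, so their ratio per kb is a level comparison within a mouse. Psmb8 (which replaces Psmb5, of chymotrypsin-like activity) stood to it at 0.0171 ± 0.00282 in sedentary controls, 0.0183 ± 0.00293 with sedentary PBMT, 0.0164 ± 0.0051 in fatigued controls and 0.0142 ± 0.00291 with fatigued PBMT (n = 6 each). Psmb9 (which replaces Psmb6, of caspase-like activity) stood to it at 0.00779 ± 0.00206, 0.00802 ± 0.0024, 0.0053 ± 0.00266 and 0.00471 ± 0.00221. For Psmb10 (which replaces Psmb7, of trypsin-like activity) these ratios were 0.0786 ± 0.0292, 0.0615 ± 0.00923, 0.0593 ± 0.0102 and 0.0648 ± 0.00992. Groups overlapped in each ratio, and the ratios were not tested. How the pairs rank depends on the measure of length: with the longest transcript instead of the union of exons the mean ratios in sedentary controls were 0.0355 for Psmb8, 0.00899 for Psmb9 and 0.0347 for Psmb10. Bulk RNA cannot tell fewer immune or vascular cells from less inducible RNA per cell.

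The tissue-restricted pair was close to absent. Psma8, the testis form of an alpha subunit, summed to 7 counts over sedentary controls, 5 over sedentary PBMT, 17 over fatigued controls and 7 over fatigued PBMT, and 14 of those 17 came from fatigued control mouse 3. Psmb11, the catalytic subunit of cortical thymic epithelium, had 1, 0, 1 and 2 counts in the same groups. No difference was detectable at these counts (exact permutation tests, two-sided p from 0.303 to 1 for both genes in the 4 comparisons). Foxn1, the defining gene of thymic epithelium, was at 0 in all 24 mice.

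In mice without PBMT, 5 subunits rose in fatigued relative to sedentary muscle, and each of them belongs to the regulatory particle. They were Psmc1 and Psmc2 of the ATPase ring, Psmd1 of the base, and Psmd7 and Psmd11 of the lid. Of the 37 subunits tested, 5 (13.5%) were called, all 5 higher, against 16.5% of all genes called, 9.36% higher and 7.16% lower. The share called is thus near that of all genes. By DESeq2 the same 5 were called, beside 3102 of 17035 genes. With sample quality weights voom called 13 subunits, beside 4583 of 14323 genes. Across subunits the median log2 fold change was 0.0043, with 19 higher and 18 lower, beside -0.004 over all 14323 genes tested, of which 49.5% were higher.

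Psmc1 (ENSMUSG00000021178, chr12:100110154-100123405, + strand, GRCm38) encodes an ATPase whose tail docks into the alpha ring and opens the gate of the core. Its lowest, median and highest CPM were 126, 135 and 149 in sedentary controls and 164, 167 and 170 in fatigued controls. Each of the 6 fatigued control mice lay above each sedentary control mouse, and they differed little among themselves (167 ± 1.80 CPM, mean ± SD). The log2 fold change was 0.30 (standard error 0.0574, adjusted p = 0.00234, 95% interval 0.18 to 0.42), or 1.23-fold.

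Psmd1 (ENSMUSG00000026229, chr1:86064387-86139151, + strand) encodes the large scaffold of the base that holds a ubiquitin receptor. It had 112, 125 and 141 CPM as lowest, median and highest in sedentary controls and 144.5, 154 and 172 CPM in fatigued controls, so that these groups did not overlap either. Its log2 fold change was 0.32 (standard error 0.0676, adjusted p = 0.00444, interval 0.18 to 0.47), with 6 of 6 fatigued mice above the highest sedentary mouse.

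Psmd11 (ENSMUSG00000017428, chr11:80428615-80473248, + strand) encodes a lid subunit that clamps the regulatory particle to the core. In sedentary controls it had 92.7, 94.6 and 98.2 CPM as lowest, median and highest, and in fatigued controls 102, 106 and 119 CPM. The groups did not overlap, and the log2 fold change was 0.18 (standard error 0.0576, adjusted p = 0.041, interval 0.061 to 0.31; higher in 6 of 6). Altogether the groups did not overlap in 3 of 37 subunits (Psmc1, Psmd1 and Psmd11), beside 7.9% of all genes tested.

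Psmd7 (ENSMUSG00000039067, chr8:107580381-107588464, - strand), the lid partner of the subunit that removes ubiquitin, had 147, 150 and 164 CPM in sedentary and 159, 172 and 180 CPM in fatigued controls (lowest, median, highest). Fatigued control mouse 3 was the lowest of its group and lay within the sedentary range, while the other 5 lay above it. The log2 fold change was 0.18 (adjusted p = 0.0411, interval 0.059 to 0.30). Psmc2 (ENSMUSG00000028932, chr5:21785283-21803787, + strand), an ATPase, had 110, 117 and 130 CPM in sedentary and 127.5, 134 and 139 CPM in fatigued controls. Here too 5 of 6 fatigued mice lay above every sedentary mouse, with a log2 fold change of 0.18 (adjusted p = 0.0495, interval 0.054 to 0.31).

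**Figure D2:**
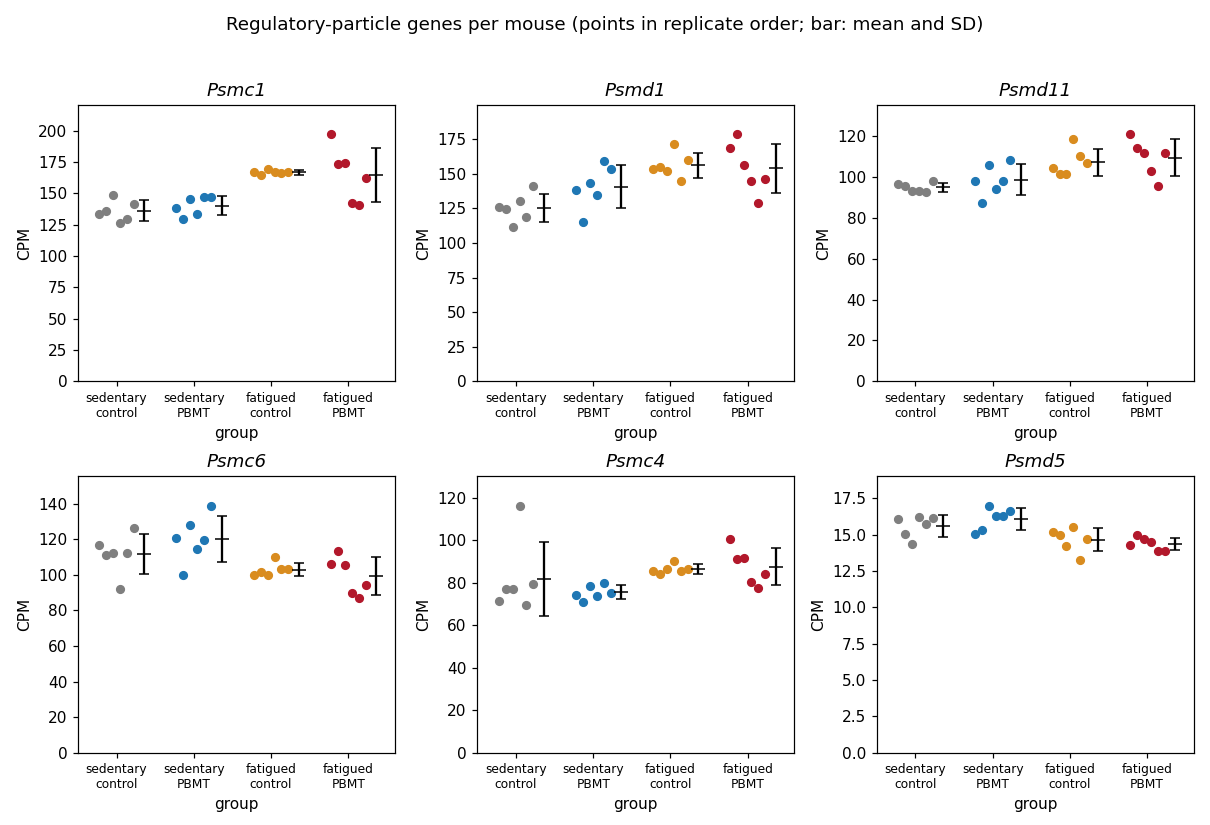
CPM of Psmc1, Psmd1, Psmd11, Psmc6, Psmc4 and Psmd5 in each of the 24 mice (points), with the mean and SD of the 6 mice of each group. For Psmc1 the fatigued control mice lie between 164 and 170 CPM, above all sedentary control mice (126 to 149 CPM), while the fatigued PBMT mice spread from 140 to 197 CPM.

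Among the other roles of the regulatory particle, the base non-ATPase genes had the highest median difference, 0.28, and the ATPases 0.14. Psmd4, a ubiquitin receptor, differed by 0.28 without passing the test (interval 0.029 to 0.53, adjusted p = 0.118), and Psmd2, which docks shuttle proteins, by 0.22 (interval 0.026 to 0.42, adjusted p = 0.115). This pair was chosen after its values were seen. Of 20 regulatory genes, 14 were higher and 6 lower (median 0.097), while of 14 constitutive core genes 5 were higher and 9 lower (median -0.02), with none called and a smallest adjusted p of 0.275. The difference between these parts of the complex was not tested.

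The count in controls depended on single mice. Without sedentary control mouse 4, 12 subunits were called in either direction, namely the 6 ATPases, Psmd1, Psmd2, Psmd3, Psmd4, Psmd7 and Psmd11, while the calls over all genes went from 2366 to 3956 of 14619. Only Psmc1 and Psmd1 passed in each of the 12 fits that left out a mouse. They were the only 2 called without fatigued control mouse 1, 4 or 6, or without sedentary control mouse 1, 2, 3 or 5. Joined to this pair were Psmd11 without fatigued control mouse 2, Psmd7 and Psmd11 without fatigued control mouse 3, Psmb9 without fatigued control mouse 5, and Psmc2 without sedentary control mouse 6. Apart from the fit without sedentary control mouse 4, calls over all genes ran from 1681 of 14274 to 2161 of 14267. These ends came without fatigued control mouse 6 and without fatigued control mouse 5.

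In mice that had received PBMT, 2 ATPase genes rose and 2 regulatory genes fell in fatigued relative to sedentary muscle. Psmc4 and Psmc1 were higher, and Psmc6 and the chaperone gene Psmd5 were lower. These 4 calls were 10.8% of the 37 subunits tested, against 26.9% of all genes called, 14.2% higher and 12.7% lower, a share under that of all genes, a difference that was not tested. DESeq2 called 5 subunits, beside 4425 of 17081 genes, and voom 6, beside 4641 of 14325 genes. The median log2 fold change was 0.037 over subunits (23 higher, 14 lower) and 0.0032 over all 14325 genes tested, of which 50.5% were higher.

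Psmc4 (ENSMUSG00000030603, chr7:28041707-28050101, - strand) had 70.9, 74.9 and 80.0 CPM as lowest, median and highest with sedentary PBMT and 77.7, 87.6 and 101 CPM with fatigued PBMT. Only fatigued PBMT mouse 5 lay within the sedentary range. The log2 fold change was 0.22 (standard error 0.0664, adjusted p = 0.0243, interval 0.077 to 0.36).

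Psmc6 (ENSMUSG00000021832, chr14:45329788-45349705, + strand), another ATPase of the ring, had 100, 120 and 139 CPM with sedentary PBMT and 86.8, 100 and 113.5 CPM with fatigued PBMT (lowest, median, highest). The groups overlapped, with 3 of 6 fatigued mice below the lowest sedentary mouse and none above the sedentary mean. Its log2 fold change was -0.28 (standard error 0.0857, adjusted p = 0.0275, interval -0.46 to -0.092), or 0.827-fold. In controls the same comparison gave -0.11 and was not called with all mice by edgeR. It was called there by voom and without sedentary control mouse 4. That mouse had 92.2 CPM, the other 5 sedentary controls 111 to 126.5 CPM, and fatigued controls 99.7 to 110 CPM.

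Psmc1 had 130, 142 and 147 CPM with sedentary PBMT and 140, 168 and 197 CPM with fatigued PBMT, with fatigued PBMT mice 5 and 1 at the ends. Its groups overlapped, 4 of 6 fatigued mice lay above every sedentary mouse, and the log2 fold change was 0.24 (adjusted p = 0.0411, interval 0.065 to 0.41). Psmd5 (ENSMUSG00000026869, chr2:34849734-34874968, - strand), a chaperone that holds ATPases during base assembly, had 15, 16.2 and 17.0 CPM with sedentary PBMT and 13.9, 14.4 and 14.9 CPM with fatigued PBMT. All 6 fatigued mice lay below the lowest sedentary mouse, with a log2 fold change of -0.16 (adjusted p = 0.0462, interval -0.28 to -0.04). It was the only subunit of 37 whose groups did not overlap, beside 11.7% of all genes.

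Of the subunits called in controls, Psmd1 gave 0.13 with PBMT (adjusted p = 0.293, interval -0.06 to 0.33) and Psmd11 gave 0.15 (interval 0.0059 to 0.30, adjusted p = 0.114). Psmc2 gave 0.086 (interval -0.08 to 0.25, adjusted p = 0.436) and Psmd7 gave 0.1 (interval -0.068 to 0.27, adjusted p = 0.367), so that of the 5 only Psmc1 was called with PBMT. These comparisons use different mice, and the test of the difference of effects given further on did not call any subunit. Among the 20 regulatory genes 15 were higher and 5 lower with PBMT (median 0.093), and among the 14 constitutive core genes 8 were higher and 6 lower (median 0.0083, smallest adjusted p 0.158).

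Here too single mice moved the calls. Without fatigued PBMT mouse 1 the 4 called were Psma2, Psmb1, Psmc4 and Psmc6, and without fatigued PBMT mouse 5 they were Psmb9, Psmc1, Psmc4 and Psmd11. Psmc4 was called in 11 of 12 such fits, all but that without sedentary PBMT mouse 1, while Psmc6 was called in 7, Psmc1 in 3 and Psmd5 in 3. In other settings Psmc4 was not called with all mice of the 4 groups in 1 fit, and Psmd5 was not called with no filter. Psmc4 was the only subunit called without fatigued PBMT mouse 6 or without sedentary PBMT mouse 3. The count was 2 without fatigued PBMT mouse 3 or 4 or sedentary PBMT mouse 1, 4, 5 or 6, and 3 without mouse 2 of either group. Calls over all genes in these fits ran from 3073 of 14485 to 4041 of 14447. These ends came without sedentary PBMT mouse 1 and without sedentary PBMT mouse 2.

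**Figure D3:**
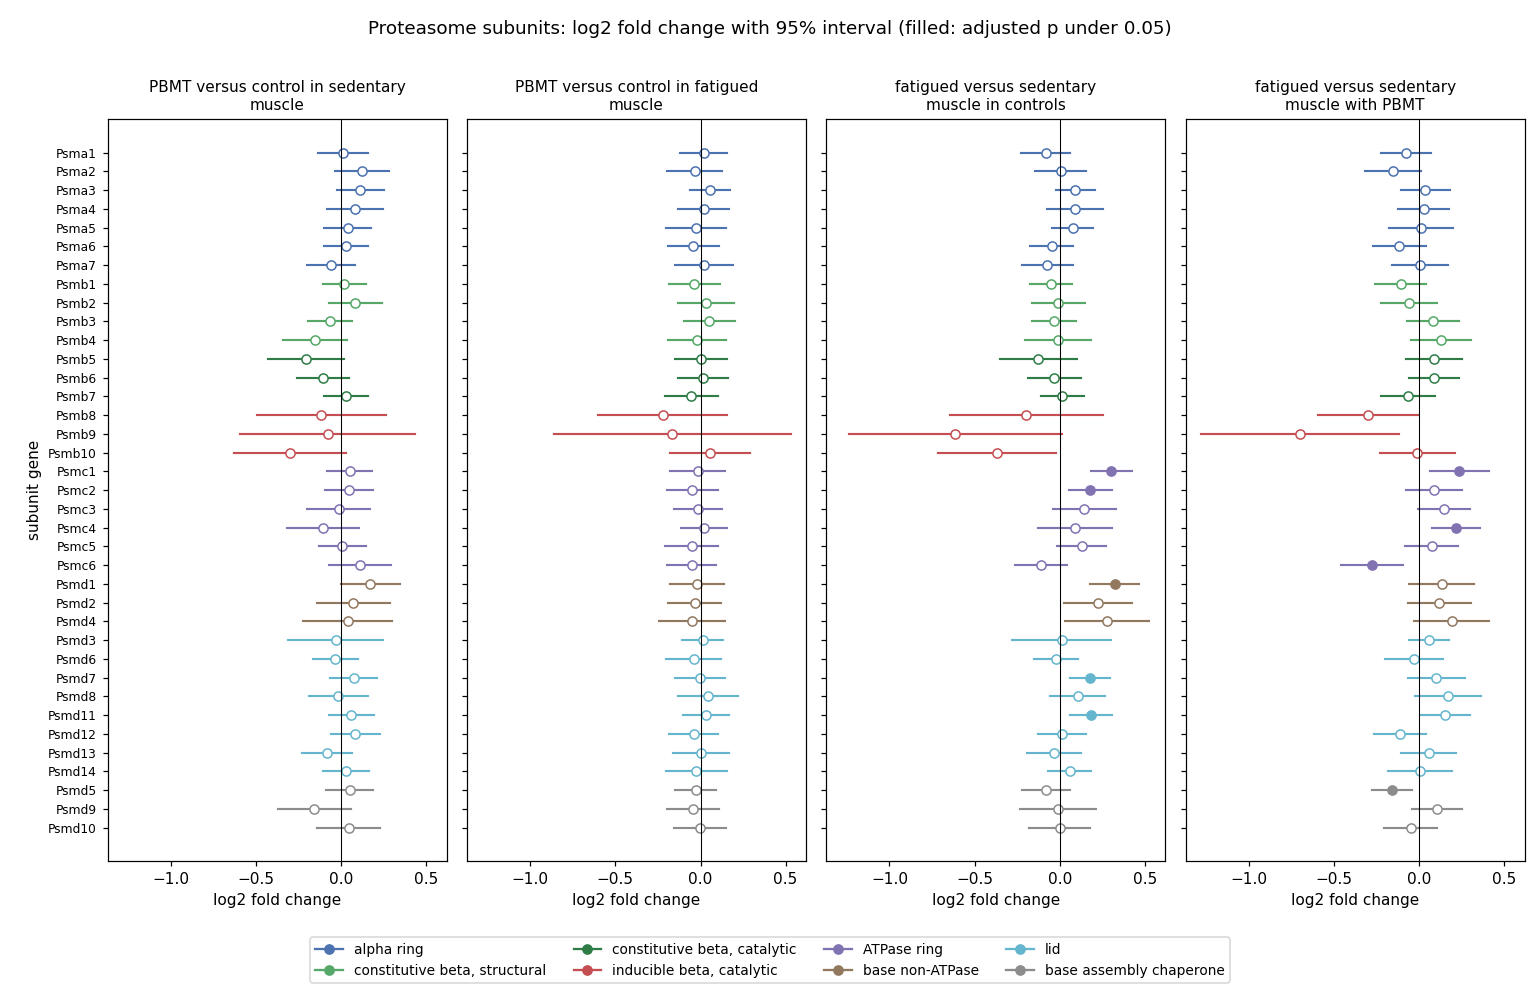
Log2 fold change with 95% interval of the 37 tested subunits, by role, in the 4 comparisons of 6 mice against 6, where filled points have an adjusted p under 0.05. Filled points appear only in the fatigued versus sedentary panels, 5 in controls and 4 with PBMT, all of them regulatory genes.

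The constitutive catalytic genes differed little between states. In controls the log2 fold change was -0.13 for Psmb5 (interval -0.35 to 0.1, adjusted p = 0.45), -0.031 for Psmb6 (interval -0.19 to 0.13, adjusted p = 0.809) and 0.016 for Psmb7 (interval -0.11 to 0.14, adjusted p = 0.883). With PBMT these were 0.086 (interval -0.079 to 0.25), 0.087 (interval -0.061 to 0.24) and -0.067 (interval -0.23 to 0.091), none called. Single mice moved these values too, to 0.032 for Psmb5 and 0.029 for Psmb6 without fatigued PBMT mouse 1, and for Psmb7 to -0.12 without that mouse and -0.017 without fatigued PBMT mouse 5. Signs this close to 0 turned with the setting: for Psmb5 in controls the value was 0.0028 by voom and 0.048 with the trend on transcript length removed. Without sedentary control mouse 4 it was -0.0059.

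The inducible genes were lower in fatigued than in sedentary muscle in most values, and none passed the test with all mice. Psmb10 (a subunit of trypsin-like activity) had 7.31, 7.57 and 14.1 CPM as lowest, median and highest in sedentary controls and 5.71, 6.50 and 9.15 CPM in fatigued controls. The highest values belong to sedentary control mouse 4 and fatigued control mouse 5, and the other 5 fatigued mice lay below every sedentary mouse. Its log2 fold change was -0.37 (interval -0.72 to -0.02, adjusted p = 0.139), and it was -0.19 without sedentary control mouse 4 and -0.48 without fatigued control mouse 5.

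Psmb9 (ENSMUSG00000096727, chr17:34181987-34187764, - strand) had 0.993, 1.41 and 2.35 CPM in sedentary controls and 0.470, 0.927 and 1.97 CPM in fatigued controls (lowest, median, highest). With PBMT it had 1.08, 1.39 and 2.34 CPM in sedentary and 0.587, 0.844 and 1.74 CPM in fatigued muscle. Mouse 5 was the highest in both fatigued groups, and the groups overlapped in both comparisons. The log2 fold change was -0.61 in controls (interval -1.24 to 0.015, adjusted p = 0.172) and -0.70 with PBMT (interval -1.28 to -0.12, adjusted p = 0.0699). Psmb9 was called without fatigued control mouse 5 in controls and without fatigued PBMT mouse 5 with PBMT, and in the latter comparison also by DESeq2 (adjusted p = 0.0457) and voom with all mice. Tap1, which overlaps Psmb9 on the other strand, averaged 2.78 CPM against 1.29 CPM for Psmb9, and since the strand setting of the counting is not given in the sources used here, the counts of this pair are uncertain.

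Psmb8 (ENSMUSG00000024338, chr17:34197721-34201454, + strand) had 2.98, 4.10 and 6.37 CPM in sedentary controls and 2.58, 3.53 and 6.05 CPM in fatigued controls. With PBMT it had 3.02, 3.95 and 5.25 CPM in sedentary and 2.83, 3.15 and 3.90 CPM in fatigued muscle, again with mouse 5 highest in each fatigued group and overlap throughout. The log2 fold change was -0.20 in controls (interval -0.65 to 0.25, adjusted p = 0.569; -0.066 without sedentary control mouse 4 and -0.39 without fatigued control mouse 5) and -0.30 with PBMT (interval -0.59 to -0.0091, adjusted p = 0.117). Psmb10 differed by only -0.011 with PBMT (interval -0.23 to 0.21, adjusted p = 0.95). The median of the 3 inducible genes was -0.37 in controls and -0.30 with PBMT.

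**Figure D4:**
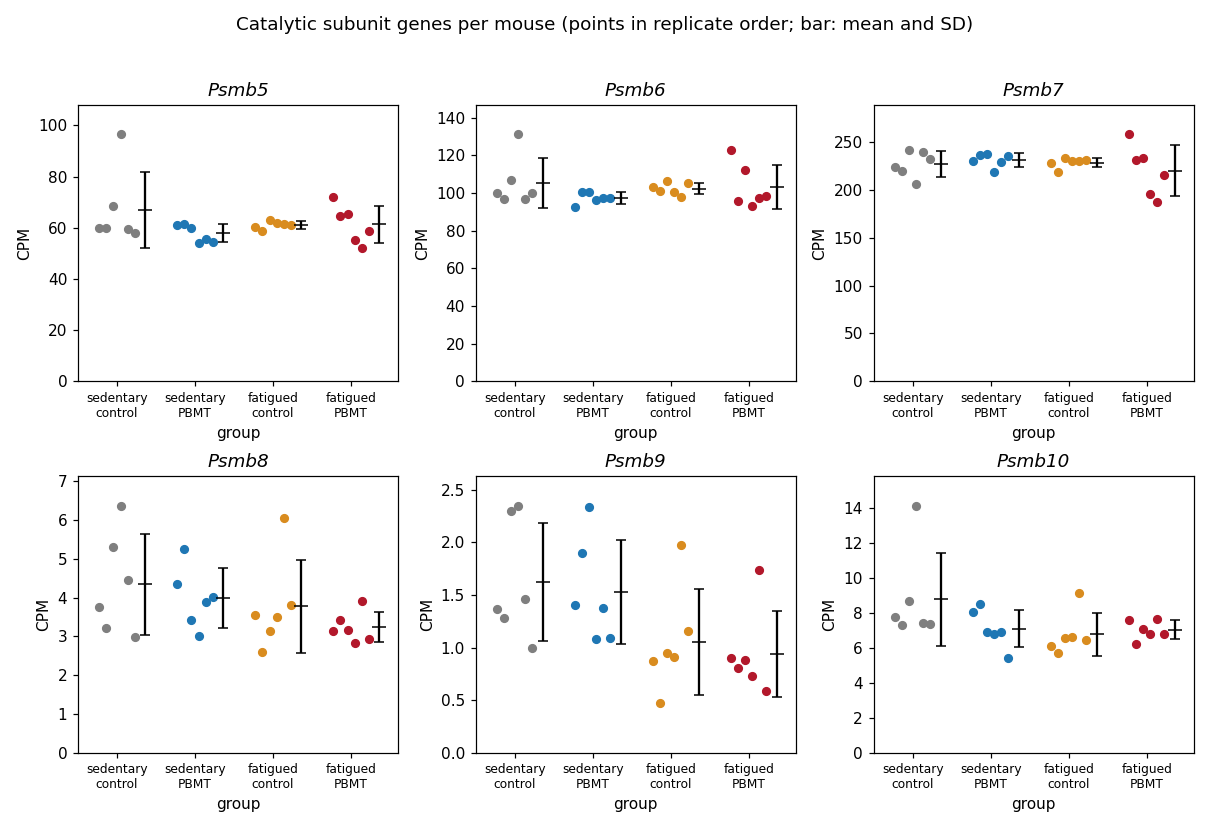
CPM of the constitutive catalytic genes Psmb5, Psmb6 and Psmb7 and of the inducible Psmb8, Psmb9 and Psmb10 in each of the 24 mice, with the mean and SD of the 6 mice of each group. Sedentary control mouse 4 is the highest of its group in all but Psmb7, where it is the lowest at 206 CPM.

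PBMT did not detectably change any subunit in sedentary muscle. edgeR called 0 of 37, beside 0.0282% of all genes (4 of 14177), and 0 subunits had an unadjusted p under 0.05, beside 7.63% of all genes. Calls of subunits numbered 0 by DESeq2 and 0 by voom, of which voom had 4 at an unadjusted p under 0.05. No subunit had groups that did not overlap, beside 0.48% of all genes. Of the 37, 22 were higher and 15 lower with PBMT, with a median log2 fold change of 0.026 beside -0.0019 over all genes, of which 49.6% were higher. Leaving out a mouse moved the median of the subunits to values from 0.0035 (without sedentary PBMT mouse 6) to 0.033 (without sedentary PBMT mouse 4).

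Intervals show what this comparison could have missed. For the 34 constitutive subunits they lay within -0.43 and 0.34 on the log2 scale, and for the 3 inducible ones within -0.63 and 0.44. The smallest p among higher subunits was that of Psmd1, with 112, 125 and 141 CPM in controls and 115, 141 and 159 CPM with PBMT. The groups overlapped, 5 of 6 PBMT mice were above the control mean, and the log2 fold change was 0.17 (interval -0.0016 to 0.34, adjusted p = 0.648). Psma3 of the alpha ring, next by p, gave 0.11 (interval -0.025 to 0.25, adjusted p = 0.673).

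Among lower subunits the smallest p belonged to Psmb5 (ENSMUSG00000022193, chr14:54614119-54618022, - strand). It had 57.8, 60.0 and 96.4 CPM in controls and 53.9, 57.9 and 61.6 CPM with PBMT, where the 96.4 CPM of control mouse 4 lay far above the rest of either group. The log2 fold change was -0.21 (interval -0.43 to 0.016, adjusted p = 0.659). Psmb10 followed with -0.30 (interval -0.63 to 0.03, adjusted p = 0.663), from 7.31, 7.57 and 14.1 CPM in controls to 5.42, 6.89 and 8.48 CPM with PBMT. Without control mouse 4 these fold changes were -0.082 for Psmb5 and -0.12 for Psmb10.

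Psmb6 gave -0.11 (interval -0.26 to 0.046), Psmb7 0.03 (interval -0.099 to 0.16), Psmb8 -0.12 (interval -0.50 to 0.26) and Psmb9 -0.079 (interval -0.59 to 0.44). Without sedentary control mouse 4 Psmb6 was -0.04 and the signs of Psmb7, Psmb8 and Psmb9 turned, to -0.0022, 0.017 and 0.048, still 0 subunits were called, and calls over all genes went from 4 to 18 of 14273. Other mice moved that count too, to 20 without sedentary PBMT mouse 5, 10 without sedentary PBMT mouse 2 and 2 without sedentary control mouse 1.

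In fatigued muscle PBMT changed no subunit detectably either. edgeR called 0 of 37, beside 0% of all 14574 genes, DESeq2 and voom called 0, and 0 subunits had an unadjusted p under 0.05 in any of these tools, beside 1.58% of all genes in edgeR. No subunit had groups without overlap, beside 0.0274% of all genes. Of the 37, 14 were higher and 23 lower, with a median of -0.019 beside 0.0041 over all genes, of which 52% were higher. Leaving out fatigued PBMT mouse 1 moved this median to -0.062, and leaving out mouse 4 or mouse 5 of that group moved it to 0.012 or 0.02.

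The intervals lay within -0.25 and 0.22 for constitutive and within -0.86 and 0.53 for inducible subunits. The smallest p among higher subunits belonged to Psma3 (0.058, interval -0.06 to 0.18, adjusted p = 1) and to Psmb3, a structural beta subunit (0.052, interval -0.097 to 0.20, adjusted p = 1). Among lower subunits it belonged to Psmb8 (-0.22, interval -0.60 to 0.15, adjusted p = 1) and Psmc6 (-0.052, interval -0.20 to 0.092, adjusted p = 1), where Psmb8 was -0.036 without fatigued control mouse 5. Psma3 was 0.027 without fatigued PBMT mouse 3, Psmb3 was -0.013 without fatigued PBMT mouse 1, and Psmc6 was -0.018 without fatigued PBMT mouse 5. Psmb5, Psmb6 and Psmb7 gave 0.0043, 0.013 and -0.053, and Psmb9 and Psmb10 gave -0.17 (interval -0.86 to 0.53) and 0.056 (interval -0.18 to 0.29). Leaving out a mouse moved Psmb7 to values from -0.1 to -0.012 and Psmb10 from 0.012 to 0.16.

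The effect of PBMT was not shown to differ between fatigued and sedentary muscle for any subunit. In the fit to all 24 mice edgeR called 0 of 37, beside 0.00662% of all genes (1 of 15108), and 0 had an unadjusted p under 0.05, beside 4.4% of all genes. DESeq2 and voom also called 0, with 0 and 3 subunits at an unadjusted p under 0.05. In this difference 13 subunits were higher and 24 lower, with a median of -0.05 beside 0.017 over all genes, of which 53.7% were higher. The median of the subunits was -0.078 without fatigued PBMT mouse 1 and -0.021 without fatigued PBMT mouse 5, the ends of its range with a mouse left out.

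Psmb10 had the smallest p of this difference, 0.36 (interval -0.055 to 0.78, adjusted p = 0.946), followed on the higher side by Psmb5 at 0.22 (interval -0.064 to 0.50). Without sedentary control mouse 4 these values were 0.17 and 0.084. On the lower side Psmd1 gave -0.19 (interval -0.42 to 0.044, adjusted p = 0.946) and Psma2 gave -0.15 (interval -0.37 to 0.061). Intervals lay within -0.42 and 0.50 for constitutive and within -0.94 and 0.78 for inducible subunits.

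Mice of a group differed less in the subunits than in most genes. The median SD of log2 CPM was 0.14 for the 37 subunits and 0.25 for all 15108 genes in sedentary controls, 0.084 and 0.19 with sedentary PBMT, 0.064 and 0.20 in fatigued controls, and 0.16 and 0.23 with fatigued PBMT. The SD of 29, 34, 34 and 36 of the 37 subunits was under the median of all genes in these groups. Abundant genes have less counting error, and the subunits were not compared with genes of like level. Psmb9, the least abundant subunit tested, had the largest SD in each group (0.48, 0.43, 0.64 and 0.51).

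The fatigued PBMT mice had the largest median SD of the 4 groups in the subunits, and their constitutive subunits were mostly high together or low together in a mouse. Mice 1, 2 and 3 of this group were above their group mean in 33, 26 and 32 of 34 constitutive subunits, and mice 4, 5 and 6 in 2, 2 and 3. In fatigued controls the counts ran from 10 to 23 of 34 per mouse. In sedentary PBMT mouse 3 all 34 were above the mean, by 0.076 on average. Fast fiber and endothelial markers split these fatigued PBMT mice in the same way. Fast fiber markers summed to 149300, 155100 and 152700 CPM in mice 1, 2 and 3 and to 129200, 126400 and 134100 CPM in mice 4, 5 and 6. Endothelial markers summed to 236, 258.5 and 253 CPM and to 301, 339 and 325 CPM. Leukocyte sums did not split them, at 48.5, 108 and 86.5 CPM and at 74.2, 191 and 80.4 CPM. Interstitial mesenchymal, adipocyte, erythroid, satellite cell, Schwann, slow fiber and keratinocyte sums also overlapped between these mice. The TMM factors of the fatigued PBMT mice were 0.9652, 0.9521 and 0.9497 in mice 1, 2 and 3 and 1.013, 1.077 and 0.9939 in mice 4, 5 and 6. A higher factor lowers CPM, so the size of the deviations depends in part on this scaling. Deviations without it were not computed. Run times of single mice were not used here, and what sets these mice apart was not tested.

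Transcript length moved with the fold changes. The rank correlation of log2 fold change with transcript length across the 37 subunits was 0.41 for PBMT in sedentary muscle, beside 0.34 over 14170 genes, and 0.34 for fatigued against sedentary controls, beside 0.24 over 14314 genes. It was -0.18 beside -0.016 over 14565 genes for PBMT in fatigued muscle, 0.1 beside 0.05 over 14316 genes between states with PBMT, and -0.43 beside -0.26 over 15097 genes for the difference of effects. Genes are not independent replicates, so these are descriptions.

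With this trend removed, an alternative chosen after seeing the data, Psmc1, Psmd1 and Psmd7 were called in controls. With PBMT the 4 called were Psmc6 (-0.35), Psmd5 (-0.22), Psmb8 (-0.39, adjusted p = 0.0298) and Psmb9 (-0.78, adjusted p = 0.0281), while Psmc1 (0.15) and Psmc4 (0.14) were no longer called. Calls over all genes were then 2365 of 14314 in controls and 4077 of 14316 with PBMT. The share of all calls that were higher went from 56.7% to 45.9% in controls and from 52.8% to 40.8% with PBMT. The part of length in the results was not tested further.

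The muscle label held up in the fiber markers, which were much more abundant than those of other cells. The 6 fast fiber markers summed to 105000 CPM in sedentary controls, 111000 with sedentary PBMT, 143000 in fatigued controls and 141000 with fatigued PBMT (10.8%, 11.1%, 14.1% and 13.9% of counts), with Myh4 the most abundant at 26200, 30300, 47600 and 47600 CPM. Sedentary control mouse 4 had the highest fast fiber sum of its group, 132400 CPM, with the other 5 from 92610 to 105200 CPM. Between states 3 of these 6 rose in controls and 3 with PBMT, among them Tnnt3 (0.38, adjusted p = 0.00374, higher in 6 of 6) in controls and Myh4 (0.66, adjusted p = 0.00285, higher in 6 of 6) with PBMT. The regulatory subunits that rose thus did so beside fast fiber genes, whose part was not tested. Slow fiber markers summed to 10.6, 12.2, 19.4 and 26.9 CPM, and 0 of 3 were called. These sums rest on few mice: fatigued control mouse 6 had 59.4 CPM (others 1.77 to 21.8), and fatigued PBMT mice 1 and 5 had 62.1 and 71.6 CPM (others 4.92 to 8.43).

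Cells other than fibers also give RNA to these libraries, and inducible subunits are known from immune cells. The 10 leukocyte markers summed to 93.9, 62.6, 94.7 and 98.2 CPM in the same order of groups, with Lyz2 the most abundant at 37.1, 24.7, 37.4 and 38.7 CPM, and Cd3e of T cells and Cd79a of B cells were under the filter. With PBMT in sedentary muscle 8 of the 8 tested were lower and 0 were called, beside the lower values of the 3 inducible genes. The inducible values depended on sedentary control mouse 4, without which Psmb8 was 0.017, Psmb9 0.048 and Psmb10 -0.12. Between states 1 leukocyte marker rose and 1 fell in controls, and 3 rose and 1 fell with PBMT.

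S100a8, a neutrophil gene, fell by 5.44 on the log2 scale in controls (adjusted p = 2.89e-05, lower in 6 of 6) and by 4.85 with PBMT (adjusted p = 0.0016, lower in 6 of 6; by voom adjusted p = 0.191), while Csf1r of macrophages rose by 1.13 with PBMT (adjusted p = 0.0104), with 5 of 6 fatigued mice above every sedentary mouse. Fatigued PBMT mouse 5, the highest of its group for all 3 inducible genes, also had the highest leukocyte sum of its group, 191 CPM, and fatigued control mouse 5 had the highest of its own, 140 CPM. In the sedentary groups the highest values lay in different mice: control mouse 4 had the highest inducible sum, 22.8 CPM, and a leukocyte sum of 74.9 CPM, under the 141 CPM of control mouse 1, while PBMT mouse 6 had the highest leukocyte sum, 83.75 CPM, and the lowest inducible sum, 10.5 CPM. Both fatigued mice 5 also had the highest endothelial sums of their groups, 358 CPM in controls and 339 CPM with PBMT. Their fast fiber sums were the lowest, 121800 and 126400 CPM. Sedentary PBMT mouse 2 had the highest inducible and endothelial sums of its group, 15.6 and 334 CPM. Sedentary control mouse 4 had an endothelial sum of 221 CPM, under the 255 CPM of mouse 3. Erythroid sums were highest in the mouse with the highest inducible sum in each group. The part of these cells in the inducible values was not tested.

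The interstitial mesenchymal list summed to 543, 480, 812 and 975 CPM, with Dcn the most abundant gene in sedentary and Col1a1 in fatigued muscle. Of its 5 genes 2 rose between states in controls, among them Pdgfra (0.53, adjusted p = 0.00247, higher in 6 of 6), and 3 with PBMT, and fatigued PBMT mouse 5 was highest at 2130 CPM. Endothelial markers summed to 230, 249, 270 and 286 CPM (Cdh5 most abundant; 1 of 5 rose in either comparison of states). Satellite cell markers summed to 9.39, 10.7, 10.9 and 11.5 CPM (Chodl most abundant; 1 of 3 fell with PBMT).

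Adipocyte markers summed to 20.4, 19.3, 29.9 and 38 CPM (Cfd most abundant) and erythroid markers to 85.7, 84.1, 76.3 and 77.8 CPM (Hbb-bs), with 0 called in these lists. Keratinocyte markers summed to 2.81, 7.18, 2.18 and 1.65 CPM, where Krt10, the most abundant and the only 1 of 4 tested, fell between states with PBMT. Sedentary PBMT mouse 4 had 25.5 CPM of the keratinocyte markers, and the other 5 from 1.61 to 9.15 CPM, and Krt10 was not tested without that mouse. The testis list stayed under 0.04 CPM on average, with Ddx4 the most abundant. Of the 50 markers 40 were tested, and PBMT led to 0 calls in edgeR in either state. In sedentary muscle 6 of the 40 had an unadjusted p under 0.05, beside 7.63% of all genes. In fatigued muscle 0 did, beside 1.58% of all genes. The 6 were 3 leukocyte genes, which were lower, and 2 endothelial and 1 satellite cell gene, which were higher. The part of the markers in the subunit results was not tested.

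Other genes of the pathway, 49 of a list of 50 found in the annotation, were read beside the subunits. Between states in controls 10 of 49 rose and 1 fell (22.4%, median 0.054), and with PBMT 11 rose and 2 fell (26.5%, median -0.0013), shares to be read beside the 16.5% and 26.9% of all genes. Of 7 genes of transcriptional control 4 rose in controls, and 4 rose and 1 fell with PBMT. The 5 activators and inhibitor genes (Psme1 to Psme4 and Psmf1) and the 5 genes of core assembly found in the annotation had 0 calls in both by edgeR, with 0 and 1 of them at an unadjusted p under 0.05 in controls and 1 and 0 with PBMT.

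Maff, a small Maf partner of Nrf transcription factors, rose from 3.78 to 15.7 CPM in controls (log2 2.06, adjusted p = 6.14e-07, higher in 6 of 6) and from 2.50 to 25.1 CPM with PBMT (3.33, adjusted p = 0.000616, 6 of 6). Its relative Mafk rose from 28.6 to 64.7 CPM in controls (1.19, adjusted p = 2.05e-05, 6 of 6) and from 25.6 to 83.0 CPM with PBMT (1.70, adjusted p = 1.63e-05, 6 of 6). Mafg, the remaining small Maf gene of the list, rose by 0.55 with PBMT (adjusted p = 0.000517, 6 of 6).

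In controls Vcp, the ATPase that pulls tagged proteins out of complexes, rose from 436 to 584 CPM (0.43, adjusted p = 0.00342, with 4 of 6 fatigued mice above every sedentary mouse), and Irf1, an interferon-response factor that acts on inducible subunit genes, from 6.81 to 11.1 CPM (0.72, adjusted p = 0.000484, higher in 6 of 6). None of the 3 inducible subunits was called higher beside Irf1.

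PBMT changed none of the 49 detectably in either state by edgeR, DESeq2 or voom (0 called). By edgeR 3 had an unadjusted p under 0.05 in sedentary muscle, beside 7.63% of all genes. In fatigued muscle 0 did, beside 1.58% of all genes. The smallest p belonged in sedentary muscle to Maff on the lower side (-0.59, interval -0.94 to -0.24, adjusted p = 0.349) and Ecpas, a proteasome adaptor, on the higher side (0.23, interval 0.0031 to 0.45), and in fatigued muscle to Mafk (0.36, interval -0.013 to 0.73) and the core assembly gene Psmg3 (-0.29, interval -0.61 to 0.024), both with an adjusted p of 1, and Mafk was 0.17 without fatigued PBMT mouse 3. For the difference of effects they belonged to Maff (1.28) and Ecpas (-0.26). Here 2 of the 49 had an unadjusted p under 0.05, beside 4.4% of all genes, and 0 were called.

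Promoters of the subunits were searched for the letters of an antioxidant and of interferon response elements, a search planned for all subunits. The antioxidant response element is bound by Nrf factors with small Maf partners. RefSeq promoters (250 bases before to 50 after the start, build GRCm38.p6) were found for 32 of the 39 subunits. The core letters of that element, TGACNNNGC on either strand, were in 5 of 32 (15.6%; Psmb5, Psmb6, Psmc6, Psmd9 and Psmd12), beside 14% of 27025 genes with a promoter. The letters of the interferon-stimulated element, GAAANNGAA, were in 5 (15.6%; Psmb3, Psmb4, Psmc2, Psmd4 and Psmd9) beside 9.76%, and those of the interferon-gamma activated site, TTCNNNGAA, in 2 (6.25%; Psmb8 and Psmd2) beside 9.55%. None of the 3 inducible genes held GAAANNGAA in this window.

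Of the subunits called between states with all mice, Psmc2 and Psmc6 held some of these letters, the former rising in controls and the latter falling with PBMT. The promoter of Psmc6 is shown up to the first base of its GENCODE gene (chr14:45329574-45329787, build GRCm38.p6, + strand), from 250 to 37 bases before the RefSeq start. Capitals mark the match to the antioxidant response element core, which reads on the other strand and lies 227 bases before the start. A match is a description of letters, not a site in use or a cause.
Psmc6: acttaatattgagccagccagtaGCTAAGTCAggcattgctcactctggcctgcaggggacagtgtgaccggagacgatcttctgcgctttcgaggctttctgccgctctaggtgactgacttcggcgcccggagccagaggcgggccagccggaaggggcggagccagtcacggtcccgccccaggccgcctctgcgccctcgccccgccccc

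Some subunit genes share ground with other expressed genes, which bears on their counts. On the other strand, Slc39a13 (22.4 CPM) overlaps Psmc3 (210 CPM), Sirt3 (20.6 CPM) overlaps Psmd13 (83.5 CPM) and Nek6 (10.3 CPM) overlaps Psmb7 (227 CPM). On the same strand AW209491 (12.9 CPM) overlaps Psma2 (75.7 CPM). The libraries were directional, but how the strand was used in counting is not given in the sources used here, so the levels of these pairs are uncertain to that extent.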

How the data were processed

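Gene counts of poly(A) RNA were analysed as deposited by the authors: 1 file of whole-number counts per gene for each of 24 mice, not normalized and not pooled. The submitters' processing notes name Trimmomatic, STAR 2.7.1a, Picard 2.20.4, StringTie 2.0.4, featureCounts 1.6.0, HTSeq and the build GRCm38. The strand setting and annotation release of the counting are not given in the sources used here. Of 55487 identifiers, 55227 were matched in GENCODE M21, which gave symbols, coordinates and lengths.

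Groups came from the sample labels. Each comparison of 6 mice with 6 was fitted on all genes in R 4.3.3 with edgeR 4.0.16 (TMM, filterByExpr with a minimum count of 10, robust quasi-likelihood tests, two-sided), and p-values were adjusted by Benjamini-Hochberg over every gene in the fit, with a threshold of 0.05. The difference of the PBMT effects was fitted on all 24 mice. CPM is relative to the TMM-scaled library size over the 15108 genes that passed the filter in 4 groups, with a prior count of 2 for log values. Total counts and the removed genes were compared by exact permutation of 6 mice against 6. No library was a duplicate of another. At these depths, from 43271093 to 68726155 counts, differences between mice and not counting set the precision of most subunits. Counting error weighs most for Psmb9, with 26 to 121 counts per mouse, and for Psma8 and Psmb11.

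Genes were named by rule: the constitutive and inducible catalytic subunits with Psma8 and Psmb11, the members called (at most 6 per comparison by p) or, with none called, 2 higher and 2 lower with the smallest p, the highest and lowest member per kb of each role, at most 4 genes of the pathway called per comparison, and the most abundant gene of each marker list with at most 3 markers called. Some genes that this rule names are not reported here. Members called in an alternative, Psmd2 and Psmd4, the genes overlapping a member and the genes holding a motif were named after their values were seen. Members and lists were chosen with earlier results of these data known.

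Results were recomputed by DESeq2 1.42.0, by voom with sample quality weights (limma 3.58.1) and by edgeR with DESeq2 size factors. They were also recomputed without a filter or with a minimum of 10 counts in each mouse, with all mice in 1 fit, with replicate number as block, with the transcript length trend taken out (loess, span 0.3), and without each mouse. Promoters were those of RefSeq (GRCm38.p6). Protein sequences and the imaging, running and lactate measurements were not used here.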

Additional observations from a re-analysis of the deposited data

Results flagged for a closer look

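In 17 of 88 groups of 6 mice looked at, for the named subunits, the catalytic ratios and the summed core and regulatory genes, a mouse lay far from the other 5 of its group. Chance gives this in about 1 in 20 groups, and values of related genes in the same mouse are not independent. No pair of PBMT effects was fully opposed between the states for any of the 37 subunits tested.

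Sedentary control mouse 4 was far above the other 5 for Psmb5 (96.4 CPM, others 57.8 to 68.6), Psmb6 (131 CPM, others 96.8 to 107), Psmb10 (14.1 CPM, others 7.31 to 8.67) and Psmc4 (116 CPM, others 69.3 to 79.3). Its ratio of Psmb10 to Psmb7 per kb was 0.138, beside 0.0621 to 0.0719 in the others.

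Fatigued control mouse 5 was far above the other 5 for the inducible Psmb8 (6.05 CPM, others 2.58 to 3.80) and Psmb10 (9.15 CPM, others 5.71 to 6.59). Its ratio of Psmb8 to Psmb5 was 0.0262 (others 0.0117 to 0.0165) and that of Psmb10 to Psmb7 was 0.0797 (others 0.0524 to 0.0576). Fatigued PBMT mouse 5 was far above its group for Psmb9 (1.74 CPM, others 0.587 to 0.897), for the ratio of Psmb9 to Psmb6 (0.00914, others 0.00305 to 0.00431) and for that of Psmb8 to Psmb5 (0.0199, others 0.0116 to 0.0141).

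Fatigued PBMT mouse 1 was far above the other 5 for Psmb3 (75.8 CPM, others 57 to 63.3) and Psmd7 (205 CPM, others 154 to 173). Fatigued control mouse 4 was so for Psma3 (134 CPM, others 124 to 127) and Psmc6 (110 CPM, others 99.7 to 104). Fatigued control mouse 2 was far below its group for Psmb7 (218 CPM, others 228 to 233).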

How the results depend on the processing

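The directions of the called subunits held under all alternatives run, and Psmc1 and Psmd1 in controls were called in each of them. In controls 5 subunits were called between states, and the count was 2 with no filter, 13 by voom, 3 with all mice in 1 fit and 3 with the length trend removed, an alternative chosen after seeing the data that also moved the median of the subunits from 0.0043 to 0.0703. Leaving out a mouse gave 2 to 12 subunits, and 8 to 17 genes of the pathway list, where 11 were called with all mice, 17 without sedentary control mouse 4 and 18 by voom. With PBMT the count was 3 with no filter and 3 with all mice in 1 fit, and leaving out a mouse gave 1 to 4 subunits. The median of the subunits ranged from -0.062 to 0.0203 for PBMT in fatigued muscle, from -0.019 to 0.019 between states in controls and from -0.0084 to 0.066 with PBMT, crossing 0 in each. Calls over all genes in sedentary muscle, 4 with all mice, were 16 with no filter, 60 by DESeq2, 47 by voom, 1 with all mice in 1 fit and 12 with the length trend removed. In fatigued muscle DESeq2 called 2 genes. Between states in controls voom called 4583, where 2366 were called by edgeR. Calls over all genes there were 1945 of 27873 with no filter and 2809 of 15108 with all mice in 1 fit. Between states with PBMT they were 3284 of 27940 and 4051 of 15108. The cause was not tested.

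Signs turned only for uncalled values. For PBMT in sedentary muscle these were Psmb7 by voom (-0.00026) and Psmb9 by voom (0.064) and with the length trend removed (0.015). In fatigued muscle they were Psmb5 with no filter (-0.0011), by voom (-0.0064) and with the length trend removed (-0.018), and Psmb6 by voom (-0.022) and with the trend removed (-0.014). Between states in controls they were Psmb5 by voom (0.0028) and with the trend removed (0.048), Psmb6 likewise (0.049 and 0.17), and Psmb7 by voom (-0.0061). For the difference of effects it was Psmb6 with the trend removed (-0.0079). The cause was not tested.

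Leaving out a mouse, ranges that crossed 0 were, for PBMT in sedentary muscle, Psmb7 from -0.0022 to 0.047, Psmb8 from -0.21 to 0.017 and Psmb9 from -0.24 to 0.048. In fatigued muscle they were Psmb3 from -0.013 to 0.076, Psmb5 from -0.047 to 0.046, Psmb6 from -0.044 to 0.042 and Psmb9 from -0.44 to 0.11. Between states they were Psmb6 from -0.062 to 0.0298 and Psmb7 from -0.022 to 0.027 in controls and Psmb10 from -0.0795 to 0.045 with PBMT. For the difference of effects they were Psmb8 from -0.24 to 0.081 and Psmb9 from -0.36 to 0.19.

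With the replicate number as a block, 2 subunits were called in controls (Psmc1 at 0.30 and Psmd1 at 0.33) and 0 with PBMT, where Psmc6 was -0.28 with an adjusted p of 0.0736. Calls over all genes were then 1714 and 2768 between states, 11 for PBMT in sedentary and 1 in fatigued muscle. Psmb5 for PBMT in fatigued muscle was -0.0037 with the block. What a number marks is not given in the sources used here. Correlations of deviations within the 6 pairs ran from -0.072 to 0.066 for PBMT in sedentary, from -0.085 to 0.33 in fatigued muscle, from -0.13 to 0.031 between states in controls and from -0.27 to 0.0082 with PBMT. Their medians were 0.0093, 0.178, -0.0068 and -0.073 in the same order. A mouse was closest to its own number in 1, 6, 0 and 0 of 12. Both were highest for PBMT in fatigued muscle, where the main fit used no block. What this reflects was not tested.

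Of all other values 1307 kept their direction and side of the threshold, 75 lost a call and 6 gained it. Depth limits Psmb9, Psma8 and Psmb11 most, and intervals and p-values cover these mice only. State and sequencing project cannot be told apart. Transcript levels were measured, and neither protein nor protease activity was used here.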
